A study of Mus musculus with 13 samples.

Results

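Collagens, laminins and their basement membrane partners were followed in bulk RNA sequencing of liver endothelial cells, the cells that line the sinusoids and larger vessels of the liver. The members were the symbols of the count table that name a collagen chain or a laminin chain, together with the nidogens Nid1 and Nid2, perlecan (Hspg2), agrin (Agrn), Sparc, fibronectin (Fn1) and the lysyl oxidases Lox and Loxl1 to Loxl4. They numbered 66 of 24421 symbols. Germ-free wild-type mice (GF), which carry no live microbes, gave 6 libraries, numbered 8 to 13, and conventionally raised wild-type mice (CONV-R), with their normal microbiota, gave 7, numbered 1 to 7. The labels give no age, sex, isolation method or batch, and they do not say whether a library is 1 animal, so all that the p-values reflect is the spread from library to library, which may be technical.

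Basement membranes are thin sheets under endothelium and epithelium in which a laminin network and a collagen IV network are held together by nidogens and the heparan sulfate proteoglycans perlecan and agrin. Fibrillar collagens form the banded fibres of interstitial matrix, collagen VI forms beaded filaments beside them, and lysyl oxidases cross-link collagen and elastin. In the liver, the sinusoid is known for lacking a continuous basement membrane, while stellate cells and portal fibroblasts are the usual sources of fibrillar collagen.

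The upstream bases of 6 members, chosen with their values known, are shown. Nid1 (the linker between the laminin and collagen IV networks), Loxl4 (a cross-linking enzyme) and Col17a1 (a transmembrane collagen of epithelial anchoring junctions) were the members for which the lowest GF library exceeded the highest CONV-R library. They were 5.88% of the 51 tested members, near the 5.94% of all tested genes that separated in this way. Col3a1 (a fibrillar collagen), Col6a1 and Col6a2 (chains of collagen VI) were among the members that stood out together in a single library, GF 11. Each sequence holds the 100 bases before the annotated gene start, on the gene's own strand and read 5′ to 3′, from RefSeq in build GRCm38.p6. Capitals mark matches on either strand to CCAAT, to the GC box GGGCGG or to the TATA box TATAAA, which do not overlap one another here.
Nid1, chr13:13437451-13437550, plus strand: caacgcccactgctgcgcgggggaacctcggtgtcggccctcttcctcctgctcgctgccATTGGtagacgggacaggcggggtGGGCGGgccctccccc
Loxl4, chr19:42612814-42612913, minus strand: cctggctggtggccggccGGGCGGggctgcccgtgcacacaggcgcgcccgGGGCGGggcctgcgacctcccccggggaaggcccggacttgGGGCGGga
Col17a1, chr19:47692095-47692194, minus strand: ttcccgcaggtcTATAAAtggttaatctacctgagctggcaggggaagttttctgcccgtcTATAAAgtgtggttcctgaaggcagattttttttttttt
Col3a1, chr1:45311438-45311537, plus strand: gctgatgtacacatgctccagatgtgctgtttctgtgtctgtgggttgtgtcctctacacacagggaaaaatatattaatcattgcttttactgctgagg
Col6a1, chr10:76726169-76726268, minus strand: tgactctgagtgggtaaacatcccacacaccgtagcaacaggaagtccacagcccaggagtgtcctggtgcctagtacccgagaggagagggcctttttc
Col6a2, chr10:76623631-76623730, minus strand: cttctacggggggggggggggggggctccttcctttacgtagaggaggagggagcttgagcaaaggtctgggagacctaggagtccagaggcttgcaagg

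These windows differed in composition. The share of G and C was 83% for Loxl4 and 73% for Nid1, against 42% for Col17a1 and 43% for Col3a1. Loxl4 held 3 GC boxes, Nid1 held 1 GC box and 1 CCAAT (as ATTGG), and Col17a1 held 2 TATA boxes, while the windows of Col3a1, Col6a1 and Col6a2 held none of these letters. Of the 36 members for which the table held this window, 19 (52.8%) had a GC box, 3 (8.3%) a CCAAT and 2 (5.6%) a TATA box. Over all 12724 genes with such a window the shares were 35.3% for the GC box, 22.7% for CCAAT and 5.3% for TATAAA. A match describes letters only. In the annotation, the collagen IV genes lie head to head in pairs: Col4a1 and Col4a2 overlap by 22 bases at their starts on chromosome 8, Col4a4 and Col4a3 start 71 bases apart on chromosome 1, and Col4a6 and Col4a5 start 1308 bases apart on the X chromosome.

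The libraries held 23407168 to 35478115 counts in GF and 7590320 to 32869515 in CONV-R, and the members took 0.896% to 1.08% of these counts in GF and 0.552% to 0.986% in CONV-R. Endothelial markers were abundant throughout, none of the 13 (such as Stab2, Cdh5 and Pecam1) being at 0. Their summed level was 35621 to 39309 CPM in GF and 18969 to 34797 CPM in CONV-R, lowest in CONV-R 1, where CPM are counts scaled for the size of the library. Summed markers of hepatocytes stood at 842 to 1316 CPM in GF and 1420 to 7944 CPM in CONV-R, highest in CONV-R 1 and 7, with all 13 markers detected somewhere but Ass1 at 0 in most libraries. GF 11 stood apart from the other 12 libraries for interstitial collagens, so results are given with and without it where it bears on them. In bulk RNA, fewer cells of a type and less RNA per cell cannot be told apart, and this holds for every result below.

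Counts were recorded for 65 of the 66 members, and 51 members passed the filter on low counts. The 15 that did not were Col22a1, at 0 in all 13 libraries, and 14 other collagens with 1 to 137 counts in all libraries together, among them the cartilage collagens Col2a1, Col9a1, Col10a1 and Col11a1. In the comparison of GF with CONV-R by edgeR's quasi-likelihood test with Benjamini-Hochberg adjustment over all genes, 9 members were higher and 7 lower at an adjusted p under 0.05, and 35 passed in neither direction. That is 31.4% of the tested members, where 24.1% of all 13915 tested genes passed. By direction it is 17.6% higher and 13.7% lower, where 11.4% and 12.7% of all genes passed. The members' median log2 fold change, GF over CONV-R, was 0.35, against -0.01 over all tested genes. With library totals in place of the trimmed-mean scaling (TMM), 6 members were higher and 7 lower, and over all genes 971 were higher and 2773 lower, with the median moved to -0.11. With the level of hepatocyte markers as a covariate, 1 of the 16 member calls was kept, that of Loxl3. Calls over all 13915 genes dropped as well in that fit, to 257 higher and 219 lower. The hepatocyte level does not overlap between the groups. Group and hepatocyte level therefore cannot be told apart in this fit, wherever its values are given below.

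Without GF 11, the higher calls dropped to 4 members (7.84%, where 8.19% of 14140 genes passed) and the lower calls stayed at 7 (13.7%, where 8.71% passed). The median over members was then 0.12, and 10 of the 16 calls were made in both fits. The higher calls also came to 4 on leaving out CONV-R 1, 5, 6 or 7, and the lower calls to 4 without GF 9 or GF 12. A total of 8 calls were kept whichever library was left out: Nid1, Loxl4, Col17a1 and Col5a2 higher in GF, and Col18a1, Col7a1, Col20a1 and Col9a3 lower. Complete separation with GF on top was seen for 3 members (5.88%), where 5.94% of all tested genes showed it. Complete separation with GF below was seen for no member, where 4.32% of all tested genes showed it.

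**Figure D1:**
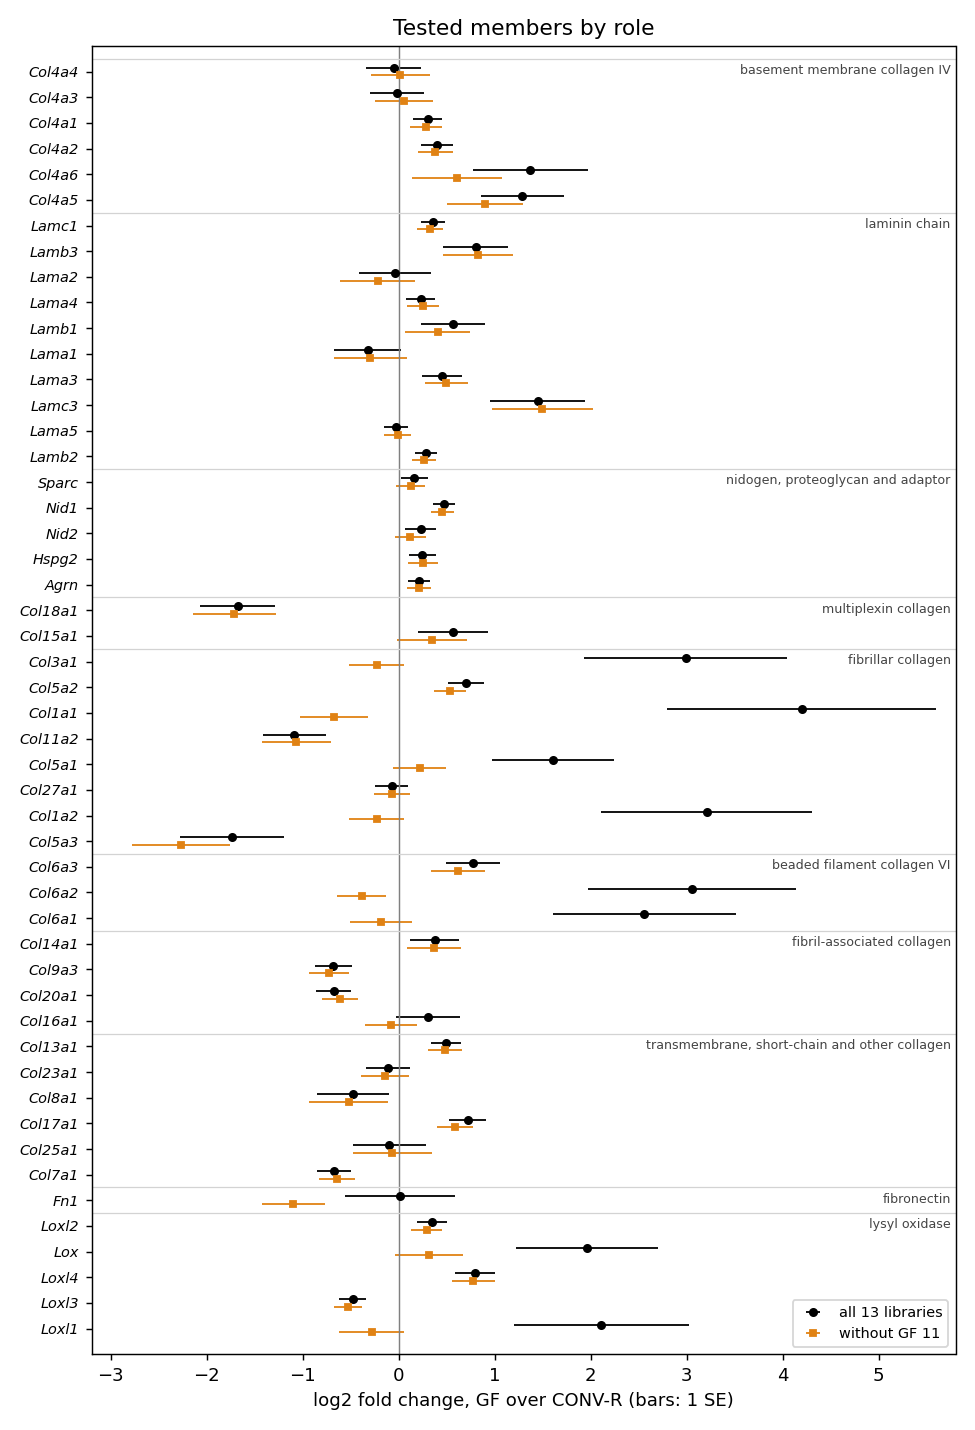
Log2 fold changes, GF over CONV-R (horizontal axis), of 50 of the 51 tested members, grouped by role down the page. Black circles use all 13 libraries, orange squares leave out GF 11, and bars are 1 standard error; Col1a1 stands at 4.20 with GF 11 and at -0.67 without it, while Nid1 stands at 0.47 and 0.46.

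The most abundant members were Sparc, the collagen IV chains Col4a1 and Col4a2, and Hspg2. Per kilobase of exon length, Sparc, a collagen-binding matricellular protein, averaged 399 ± 39.8 CPM in GF and 356 ± 78.9 CPM in CONV-R (SD, n = 6 and 7). Col4a1 and Col4a2, which encode the chains of the ubiquitous collagen IV heterotrimer, followed at 234 ± 20.9 and 176 ± 17.8 CPM per kilobase in GF, and at 190 ± 44.2 and 133 ± 33.6 in CONV-R. Hspg2 came next at 145 ± 4.86 CPM per kilobase in GF and 122 ± 27.1 in CONV-R. The order down to Hspg2 was free of overlap between neighbours within GF (Sparc at least 353, Col4a1 205 to 266, Col4a2 154.4 to 201, Hspg2 at most 153.3). Within CONV-R the ranges of every neighbouring pair in this order overlapped, with Sparc at 227 to 443, Col4a1 at 110 to 230, Col4a2 at 70.0 to 164 and Hspg2 at 69.4 to 158. Compared inside each library, however, Sparc exceeded Col4a1 and Col4a1 exceeded Col4a2 in all 13. Col4a2 exceeded Hspg2 in every library but CONV-R 7. The next 2 members, Col13a1 at 122 ± 19.3 CPM per kilobase in GF and 86.5 ± 20.8 in CONV-R, and Nid1 at 118 ± 9.25 in GF and 84.7 ± 13.9 in CONV-R, did not differ from each other beyond their spread. The 5 members Hspg2, Col4a1, Sparc, Col4a2 and Nid1 held 73.8% of all member counts.

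**Figure D2:**
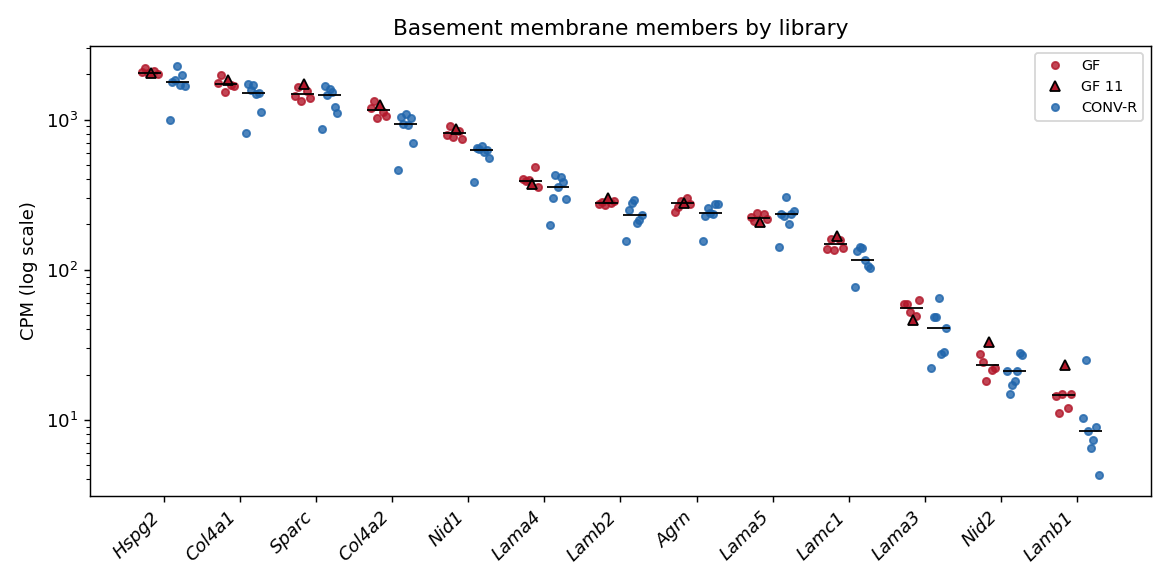
CPM (log axis) of 13 basement membrane members in each library, with GF in red left of CONV-R in blue and GF 11 as a triangle; black lines are medians. For Nid1 the GF libraries lie at 739 to 903 CPM, all above the CONV-R libraries at 385 to 665 CPM, whereas for Hspg2 and Lama5 the groups overlap.

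Among Nid1, Nid2, Hspg2, Agrn, Sparc, Col4a1 and Col4a2, Nid1 rose in GF and the others did not pass the test. Nid1 stood at 739, 813 and 903 CPM (lowest, median, highest) in GF and at 385, 623 and 665 CPM in CONV-R. Every GF library exceeded every CONV-R library, and CONV-R 1 was far below the rest of its group. The log2 fold change of Nid1 was 0.47 ± 0.11 (SE; edgeR, adjusted p = 0.0104), or 1.39-fold, and 0.46 without GF 11 (adjusted p = 0.0266). With the hepatocyte covariate it was 0.10 (adjusted p = 0.767). The gene spans chr13:13437551-13512269 on the plus strand (GRCm38). Its paralog Nid2 was at 18, 23.2 and 33.2 CPM in GF and 14.7, 21.0 and 28.0 CPM in CONV-R, with overlap (log2 fold change 0.23, adjusted p = 0.327).

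For the collagen IV chains that make up most of the network, the values were higher in GF without passing. Col4a1 lay at 1531, 1719 and 1984 CPM in GF and at 817, 1499 and 1716 CPM in CONV-R (log2 fold change 0.30 ± 0.15, adjusted p = 0.157). Col4a2 lay at 1022, 1153 and 1330 CPM in GF and at 463, 931 and 1082 CPM in CONV-R (0.40 ± 0.17, adjusted p = 0.0913). Col4a2 counts were 0.634 to 0.680 of those of Col4a1 in GF and 0.567 to 0.679 in CONV-R, so the partner chains kept to a narrow band of ratios. Hspg2 had a log2 fold change of 0.24 (adjusted p = 0.217), Agrn of 0.21 (adjusted p = 0.183) and Sparc of 0.16 (adjusted p = 0.418). CONV-R 1 was the lowest library for Nid1, Col4a1, Col4a2, Hspg2, Agrn and Sparc alike, as it was for the summed endothelial markers.

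The chains of minor collagen IV networks were less abundant, and 1 of them, Col4a5, passed. Of all 6 collagen IV chains that is 16.7%, where 24.1% of all tested genes passed in either direction. Col4a3 and Col4a4, which share a heterotrimer with Col4a5 in kidney and lung, had log2 fold changes of -0.02 and -0.05. Col4a5 was at 1.46, 3.88 and 9.11 CPM in GF and at 0.687, 1.76 and 2.84 CPM in CONV-R, with 4 of 6 GF libraries above every CONV-R library. Its log2 fold change was 1.29 ± 0.43 (edgeR, adjusted p = 0.0453). This call was lost without GF 11, where Col4a5 was highest (0.90, adjusted p = 0.129), and on leaving out any of CONV-R 1, 2, 4, 5, 6 and 7 or GF 10, 12 and 13. Its neighbour Col4a6 was at 0.246, 0.610 and 3.05 CPM in GF and 0.0624, 0.311 and 0.653 CPM in CONV-R and did not pass (adjusted p = 0.107).

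Laminins are heterotrimers of an alpha, a beta and a gamma chain, and the vascular alpha chains are encoded by Lama4 and Lama5. All 11 laminin chains were tested, and 1, Lamc3, passed. That is 9.09%, where 24.1% of all tested genes passed in either direction. The median log2 fold change over the chains was 0.36. Lama4 lay at 354, 391 and 480 CPM in GF and at 197, 354 and 430 CPM in CONV-R (log2 fold change 0.23 ± 0.15, adjusted p = 0.276). Lama5 lay at 207, 221 and 239 CPM in GF and at 142, 233 and 305 CPM in CONV-R (-0.03 ± 0.13, adjusted p = 0.888). Lamb2 and Lamc1, a beta and a gamma chain that pair with these alpha chains, had values of 0.28 (adjusted p = 0.0936) and 0.36 (adjusted p = 0.0539). The groups overlapped for each of these 4 chains.

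Summed endothelial markers were lower in every CONV-R library (at most 34797 CPM) than in any GF library (at least 35621 CPM). The basement membrane members were therefore also set against them, as a description with no test. The divisor itself thus separates the groups, which lowers GF values relative to CONV-R. Per 1000 CPM of summed endothelial markers, Col4a1 had 41.4 to 50.5 CPM in GF and 41.8 to 52.3 CPM in CONV-R, and Hspg2 54.1 to 57.7 CPM in GF and 52.4 to 67.9 CPM in CONV-R. Nid1 had 20.6 to 23.1 CPM on this scale in GF and 18.9 to 21.3 CPM in CONV-R, with 4 of 6 GF libraries above all CONV-R libraries. Sparc and Loxl4 were picked out after their values were seen. Sparc had a median of 40.8 CPM in GF and 45.4 CPM in CONV-R, with 3 of 6 GF libraries below all CONV-R libraries. Loxl4 had 0.375 to 0.510 CPM in GF and 0.243 to 0.407 CPM in CONV-R, with 5 of 6 GF libraries above all CONV-R libraries. Lama5, picked out after its values were seen, had a median of 6.16 CPM in GF and 7.51 CPM in CONV-R per 1000 CPM of markers, and the groups did not overlap, if only by a small margin (at most 6.472 in GF and at least 6.473 in CONV-R). Loxl3, a lysyl oxidase, likewise separated on this scale, at 0.972 to 1.39 CPM in GF and 1.40 to 2.51 CPM in CONV-R. By CPM without the divisor, the groups overlapped for both Lama5 and Loxl3. The share of all genes that separate on this scale was not computed.

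The laminin chain that passed, the gamma chain Lamc3, stood beside markers of bile duct cells. It was at 4.15, 11.7 and 19.6 CPM in GF and at 1.17, 4.87 and 8.60 CPM in CONV-R, with 4 of 6 GF libraries above every CONV-R library. Its log2 fold change was 1.45 ± 0.49 (edgeR, adjusted p = 0.0467), a call lost on leaving out CONV-R 1, 4, 5, 6 or 7 or GF 10, 11, 12 or 13 (adjusted p up to 0.107). The 9 cholangiocyte markers summed to 184 to 421 CPM in GF and 56.5 to 301 CPM in CONV-R, with none at 0 in all libraries and with most of the sum from Spp1, which other cells also express. CONV-R 5 had the lowest cholangiocyte sum (56.5 CPM) and the lowest Col4a5 (0.687 CPM). CONV-R 1 had the next lowest sum (61.6 CPM) and the lowest Lamc3 (1.17 CPM). GF 10, with a sum of 408 CPM, had the highest Lamc3. Other libraries did not keep to this order: CONV-R 2, at a sum of 301 CPM, had 6.75 CPM of Lamc3, while GF 12, at 296 CPM, had 13.6 CPM. The highest sum, 421 CPM in GF 13, came with neither the highest Lamc3 nor the highest Col4a5. The part of bile duct RNA in Lamc3 and Col4a5 was not tested.

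Among the lysyl oxidases, which cross-link the collagens, the values went in opposite directions. Loxl4 was at 13.9, 17.1 and 18.7 CPM in GF and at 4.61, 10.9 and 13.7 CPM in CONV-R. The groups did not overlap, and Loxl4 rose by 0.79 ± 0.20 on the log2 scale (edgeR, adjusted p = 0.0147), and by 0.78 without GF 11 (adjusted p = 0.0330). With the hepatocyte covariate its value was 0.10 (adjusted p = 0.883). Loxl3 was at 35.5, 44.3 and 52.2 CPM in GF and at 43.6, 61.7 and 80.2 CPM in CONV-R, so the groups overlapped on the CPM scale. Its log2 fold change was -0.48 ± 0.14 (edgeR, adjusted p = 0.0261), lost without GF 8, 9 or 12 (adjusted p up to 0.0617). Exons of Htra2 on the opposite strand cover 11.6% of the exon length of Loxl3, and the strand setting of the counting is not given in the sources used here. Loxl2, the most abundant of the family per kilobase (20.5 CPM in GF and 16.1 CPM in CONV-R), was at 74.6, 118.5 and 133 CPM in GF and 66.5, 85.3 and 112 CPM in CONV-R (0.35 ± 0.16, adjusted p = 0.117). Lox and Loxl1 were low except in GF 11.

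Col5a2 and the transmembrane collagens Col17a1 and Col13a1 were higher in GF. Col5a2, a chain of collagen V, which limits the width of collagen fibrils, lay at 62.1, 76.2 and 128 CPM in GF and at 32.8, 48.4 and 65.9 CPM in CONV-R. Of the GF libraries, 5 of 6 lay above every CONV-R library, and Col5a2 rose by 0.70 ± 0.19 on the log2 scale (edgeR, adjusted p = 0.0185), and by 0.53 without GF 11 (adjusted p = 0.0421). Col17a1, at 4.81, 5.60 and 8.89 CPM in GF and at 2.09, 3.93 and 4.62 CPM in CONV-R, rose by 0.72 ± 0.19 (edgeR, adjusted p = 0.0178), with no overlap between the groups. Col13a1, a collagen of cell adhesion sites, was the most abundant collagen per kilobase after Col4a1 and Col4a2. It lay at 416, 572 and 667 CPM in GF and at 279, 387 and 498 CPM in CONV-R, with 5 of 6 GF libraries above every CONV-R library. Its log2 fold change of 0.49 ± 0.16 (edgeR, adjusted p = 0.0374) lost its call without CONV-R 1, 5, 6 or 7 or GF 8, 9, 10, 11 or 13 (adjusted p up to 0.0977).

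**Figure D3:**
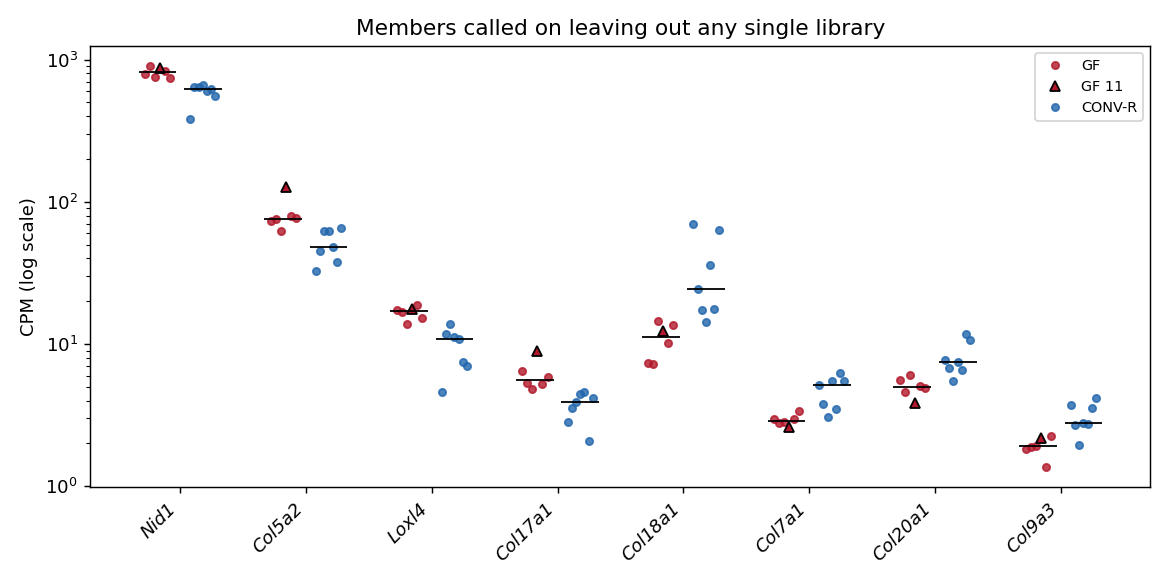
CPM (log axis) of the 8 members whose call was kept on leaving out any single library, with GF in red left of CONV-R in blue, GF 11 as a triangle and medians as black lines. Nid1, Col5a2, Loxl4 and Col17a1 are higher in GF; Col18a1, Col7a1, Col20a1 and Col9a3 are lower, with Col18a1 reaching 70.0 CPM in CONV-R 1.

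The member with the smallest p was Col18a1, the multiplexin collagen of basement membranes whose end fragment is endostatin, encoded at chr10:77052178-77166548 on the minus strand (GRCm38). Col18a1 lay at 7.24, 11.3 and 14.6 CPM in GF and at 14.3, 24.2 and 70.0 CPM in CONV-R, with 5 of 6 GF libraries below every CONV-R library. It fell by 1.68 on the log2 scale (SE 0.39; edgeR, adjusted p = 0.00951), a level 0.313 times that in CONV-R. The CONV-R libraries stood in the same order of Col18a1 and of summed hepatocyte markers. In that order, Col18a1 was at 70.0 CPM in CONV-R 1, 63.9 in CONV-R 7, 35.7 in CONV-R 5, 24.2 in CONV-R 2, 17.8 in CONV-R 6, 17.4 in CONV-R 3 and 14.3 in CONV-R 4. Leaving out CONV-R 1 and 7, chosen after the data were seen, gave a log2 fold change of -1.02 (adjusted p = 0.0188), and with the hepatocyte level as a covariate the value was 0.23 (adjusted p = 0.570). That covariate does not overlap between the groups, so group and hepatocyte level cannot be told apart in this fit. Col15a1, the other multiplexin, did not pass (0.57 ± 0.37, adjusted p = 0.268).

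A pair of minor fibrillar chains also had their highest values in CONV-R 1 and 7. Col5a3, at 0.684, 0.941 and 3.5 CPM in GF and at 2.0, 2.65 and 11.3 CPM in CONV-R, had a log2 fold change of -1.74 ± 0.54 (edgeR, adjusted p = 0.0324). Without GF 11, its highest GF library, the value was -2.27 (adjusted p = 0.0130). Col11a2, at 4.99, 5.69 and 6.87 CPM in GF and at 5.38, 8.49 and 21.8 CPM in CONV-R, had a value of -1.09 ± 0.33 (edgeR, adjusted p = 0.0286). Without CONV-R 1 and 7 these became -0.83 for Col5a3 (adjusted p = 0.137) and -0.58 for Col11a2 (adjusted p = 0.104). The call of Col5a3 was also lost on leaving out CONV-R 1 or 7 or GF 8, 9, 10, 12 or 13, and that of Col11a2 on leaving out CONV-R 1, 6 or 7 or GF 9, 10, 11 or 12.

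The other lower members were of low abundance. Col7a1, which forms anchoring fibrils under epithelia, lay at 2.60, 2.88 and 3.38 CPM in GF and at 3.08, 5.12 and 6.27 CPM in CONV-R and fell by 0.67 on the log2 scale (SE 0.18; edgeR, adjusted p = 0.0157). Col20a1 and Col9a3, which encode collagens that associate with fibrils, fell by 0.68 each (edgeR, adjusted p = 0.0167 and 0.0226). Col20a1 was at 3.86, 4.96 and 6.03 CPM in GF and at 5.48, 7.47 and 11.8 CPM in CONV-R. Col9a3 was at 1.36, 1.92 and 2.27 CPM in GF and at 1.96, 2.78 and 4.20 CPM in CONV-R. Exons of Tcfl5 on the opposite strand cover 6.07% of the exon length of Col9a3. For these 3 genes the groups overlapped, with 5, 4 and 4 of 6 GF libraries below every CONV-R library.

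**Figure D4:**
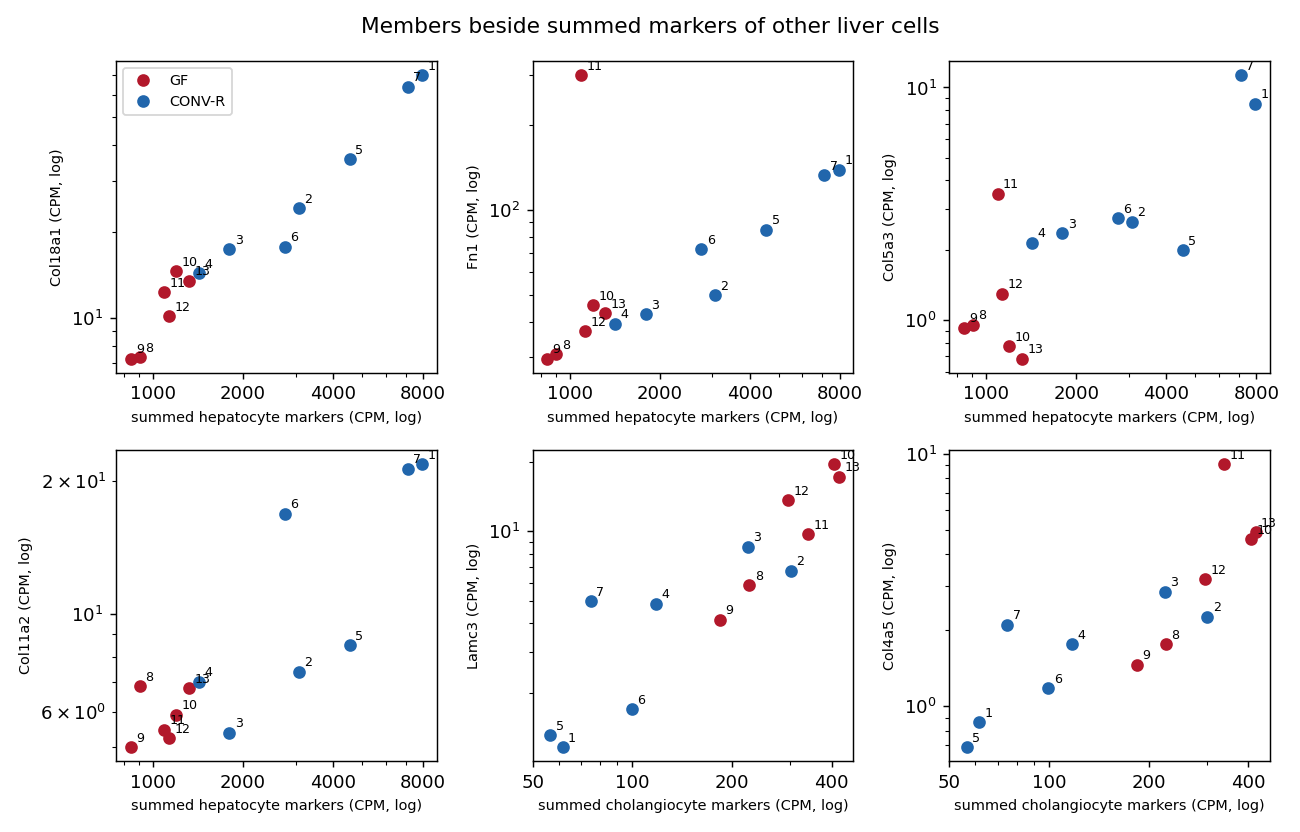
CPM of 6 members (vertical, log axis) against the summed CPM of hepatocyte markers (Col18a1, Fn1, Col5a3, Col11a2) or cholangiocyte markers (Lamc3, Col4a5; horizontal, log axis) in each library, GF in red and CONV-R in blue, with library numbers. In the hepatocyte panels CONV-R 1 and 7 lie farthest right, at 7944 and 7104 CPM of hepatocyte markers, and GF 11 lies apart for Fn1 at 299 CPM.

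Fibronectin, a matrix glycoprotein that hepatocytes also secrete into plasma, gave a result that depended on the libraries used. Fn1 was at 29.7, 40.1 and 299 CPM in GF, the highest being GF 11, and at 39.4, 72.5 and 138 CPM in CONV-R, the highest being CONV-R 1. With all libraries the log2 fold change was 0.02 ± 0.57 (adjusted p = 0.989). Without GF 11 the other GF libraries lay at 29.7 to 45.8 CPM and Fn1 fell by 1.10 (SE 0.32; edgeR, adjusted p = 0.0372). Of these 5 libraries, 3 were below every CONV-R library. Fn1 was at 133 CPM in CONV-R 7, the other library with high hepatocyte markers, and at 39.4 CPM in CONV-R 4, which had the lowest hepatocyte sum of its group. Other libraries did not keep to this order. CONV-R 2, at a hepatocyte sum of 3066 CPM, had 49.8 CPM of Fn1, while CONV-R 6, at 2756 CPM, had 72.5 CPM. GF 11 had its 299 CPM of Fn1 at a hepatocyte sum of 1092 CPM. The part of hepatocyte RNA in Fn1 was not tested.

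GF 11 carried interstitial collagens at levels seen in no other library. Col1a1, a chain of the main collagen of scar and bone, was at 154 CPM (3428 counts) in GF 11, against 0.493 to 1.19 CPM in the other GF libraries (at most 33 counts) and 0.507 to 2.72 CPM in CONV-R (at most 48 counts). Its partner Col1a2 was at 146 CPM in GF 11, against 1.57 to 3.27 CPM in the other GF libraries and 1.06 to 3.66 CPM in CONV-R. Col3a1 reached 246 CPM in GF 11, against 2.49 to 7.05 CPM in the other GF libraries and 2.94 to 8.64 CPM in CONV-R. The calls of Col1a1 (log2 fold change 4.20 ± 1.40, edgeR, adjusted p = 0.0447) and Col1a2 (3.21 ± 1.10, adjusted p = 0.0489) held only with this library. Without it the values were -0.67 (adjusted p = 0.198) and -0.23 (adjusted p = 0.601). Dropping a single CONV-R library, whichever it was, also ended both, and dropping GF 9 ended that of Col1a2.

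The same library stood out for collagen VI and for cross-linking enzymes. Col6a1 was at 57.2 CPM and Col6a2 at 48.6 CPM in GF 11, against 1.11 to 2.02 and 0.428 to 0.955 CPM in the other GF libraries and 0.507 to 2.72 and 0.608 to 1.4 CPM in CONV-R. Col6a3, the third chain of collagen VI, was at 36.2 CPM in GF 11, only 1.29 times the highest of the other 12 libraries. Lox was 10.5 times and Loxl1 15 times the highest of the others, Col5a1 8.76 times and Col12a1, a collagen of fibril surfaces, 6.52 times. Of the 57 members with at least 20 counts in the other 12 libraries together, 9 were over 5 times as high in GF 11 as in the highest of the others, and 13 over 2 times. Of all 15903 symbols with that many counts in the other 12 libraries, 36 (0.226%) were over 5 times and 99 (0.623%) over 2 times as high. Among the abundant basement membrane members, GF 11 stood at 1.09 times the median of the other GF libraries for Col4a1, 1.10 for Nid1, 0.991 for Hspg2 and 0.940 for Lama4.

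The composition of the collagen I message differed too. Col1a2 counts were 0.951 times those of Col1a1 in GF 11, against 2.22 to 3.19 times in the other GF libraries and 1.29 to 2.58 times in CONV-R. For Col6a2 over Col6a1 the ratio was 0.849 in GF 11, inside the range of the other GF libraries at 0.345 to 0.861. In the others these ratios rest on few counts.

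**Figure D5:**
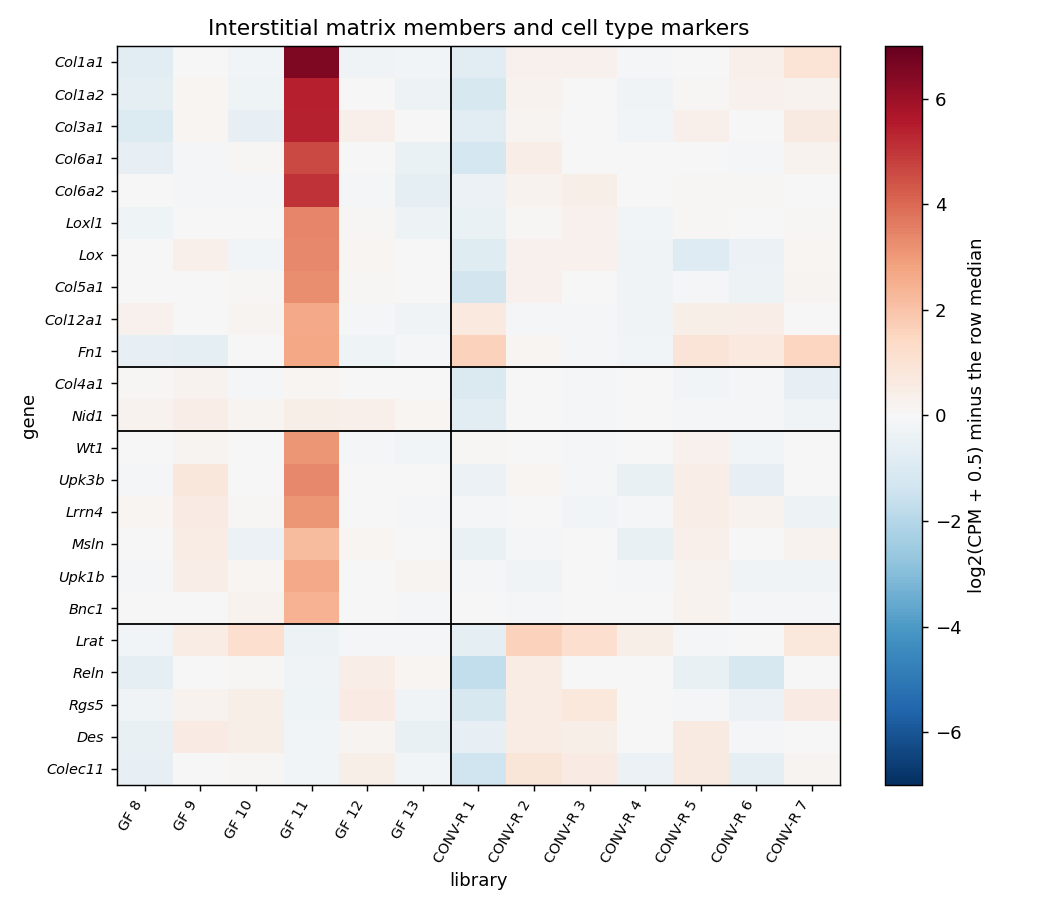
Log2(CPM + 0.5) minus the median of each row for 10 interstitial matrix members, 2 basement membrane members, 6 mesothelial markers and 5 hepatic stellate cell markers (rows), with the 6 GF libraries left of the 7 CONV-R libraries. GF 11 is high for the interstitial members and the mesothelial markers shown, while Col4a1, Nid1 and the 5 stellate markers shown are near their medians there. Only part of each marker list is shown. Pdgfrb, the stellate marker that was highest in GF 11, and the mesothelial markers Krt19 and Gpm6a are left out.

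Markers of mesothelial cells, which cover the liver surface, moved with these collagens. Of the 8 listed markers in the table, 7 were highest in GF 11 among all 13 libraries. Of the 15903 symbols with at least 20 counts in the other 12 libraries together, 1218 (7.66%) were highest there. Some of these markers, such as Bnc1, did not reach that count. Wt1, a mesothelial transcription factor, was at 4.35 CPM (97 counts) in GF 11, against 0 to 0.133 CPM in the other GF libraries and 0 to 0.187 CPM in CONV-R. Upk3b was at 9.29 CPM in GF 11, against 0.400 to 1.15 CPM in the other GF libraries and 0.131 to 0.812 CPM in CONV-R. The list summed to 92.9 CPM in GF 11, against 47.4 to 75.3 CPM in the other GF libraries and 17.6 to 52.5 CPM in CONV-R. Most of that sum came from Krt19 and Gpm6a, of which Krt19 was not highest in GF 11. Gpm6a was highest there by a small margin, at 26.5 CPM against at most 22.7 CPM in any other library.

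Other lists gave a mixed picture for GF 11. Hepatic stellate cell markers summed to 246 CPM there, within the 214 to 294 CPM of the other GF libraries, and to 109 to 270 CPM in CONV-R. Most of the sum in GF 11 came from Hgf, at 146 CPM, against 65.1 to 162 CPM in the other GF libraries. The sum therefore says little about the other stellate markers. Of these 13 markers 1 was highest in GF 11, near the 7.66% of all symbols. It was Pdgfrb, at 4.17 CPM against at most 2.51 CPM in the other GF libraries and 3.72 CPM in CONV-R. Portal fibroblast markers summed to 645 CPM in GF 11, against 560 to 635 CPM in the other GF libraries and 426 to 763 CPM in CONV-R. Of the 13 markers in that list, 5 were highest in GF 11 among all libraries, where 7.66% of all symbols were. Entpd2 was the lowest of GF there, and Gas6, the largest part of the sum, lay within the range of the other GF libraries. Among the 5, Pdgfra, a fibroblast receptor, was at 13.1 CPM in GF 11, against at most 1.97 CPM in the other GF libraries and 2.18 CPM in CONV-R. Keratinocyte markers summed to 16.8 CPM in GF 11 and to 7.13 CPM in GF 10, against 1.07 to 2.25 CPM in the remaining GF libraries and 1.80 to 3.42 CPM in CONV-R. Of the 8 markers in that list, 4 were highest in GF 11 (Krt5, Krt14, Krt15 and Trp63). Krt1 was at 0 there, and Krt10, Lor and Dsg3 were higher in some other library. Osteoblast, chondrocyte, smooth muscle and skeletal muscle sums in GF 11 lay within the range of the other GF libraries, with 3 of 13 osteoblast markers and 1 of 9 chondrocyte markers at 0 in every library. Of the osteoblast sum of 246 CPM in GF 11, 239 CPM came from Spp1. Highest in GF 11 were 2 of 13 osteoblast, 1 of 9 chondrocyte, 1 of 9 smooth muscle and 0 of 10 skeletal muscle markers. Among them, Ogn was at 1.75 CPM, against at most 0.594 CPM in the other GF libraries and 0.508 CPM in CONV-R. The endothelial sum in GF 11, 37711 CPM, also lay within the range of its group. The part of mesothelial or fibroblast RNA in the collagens of GF 11 was not tested.

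Genes that fold, modify and export collagen formed a list of 26, of which 23 were tested, 7 rose and 1 fell, with a median log2 fold change of 0.18, where 11.4% of all tested genes rose and 12.7% fell. P4ha2, a prolyl 4-hydroxylase subunit that stabilises the collagen helix, averaged 52.8 ± 5.0 CPM in GF and 27.1 ± 4.34 CPM in CONV-R (SD, n = 6 and 7, as for the genes below; log2 fold change 0.96 ± 0.10; edgeR, adjusted p = 6.6e-05). Serpinh1, the collagen chaperone HSP47, averaged 253 ± 38.3 CPM in GF and 188 ± 16.9 CPM in CONV-R (0.43 ± 0.09, adjusted p = 0.00712). The lysyl hydroxylase gene Plod3 (0.19 ± 0.05, adjusted p = 0.0185) and the prolyl 3-hydroxylase family gene P3h3 (0.36 ± 0.10, adjusted p = 0.0192) rose as well. The gene that fell was Pcolce2, an enhancer of procollagen processing (-0.93 ± 0.27, adjusted p = 0.0266). Without GF 11, 5 of 24 tested genes rose, where 8.19% of all tested genes did, and Pcolce2 stood at -0.94 (adjusted p = 0.0512).

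Receptors for these matrix proteins were a list of 23, of which 22 were tested, 7 rose and 1 fell, with a median of 0.24, beside the same 11.4% and 12.7% of all tested genes. Itgb3, the beta chain of the vitronectin receptor, averaged 261 ± 60.3 CPM in GF and 63.9 ± 22.2 CPM in CONV-R (log2 fold change 2.03 ± 0.21; edgeR, adjusted p = 5.1e-05). Itga3, an alpha chain of a laminin-binding integrin, averaged 28.1 ± 5.45 CPM in GF and 10.2 ± 3.60 CPM in CONV-R (1.45 ± 0.21, adjusted p = 6.4e-04). Itga1, an alpha chain of a collagen-binding integrin, averaged 477 ± 35.0 CPM in GF and 320 ± 66.6 CPM in CONV-R (0.58 ± 0.13, adjusted p = 0.00941). Itgb8, the beta chain of a receptor that activates latent TGF-beta, averaged 2.06 ± 0.574 CPM in GF and 0.548 ± 0.250 CPM in CONV-R (1.84 ± 0.29, adjusted p = 0.00100). The receptor gene that fell was Itgav (-0.39 ± 0.13, adjusted p = 0.0449). Without GF 11, 6 of 22 tested genes rose, where 8.19% of all tested genes did. Itgav then stood at -0.42 (edgeR, adjusted p = 0.0631).

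Other matrix glycoproteins and elastic fibre genes were a list of 35, of which 28 were tested, 6 rose and 4 fell, with a median of 0.22, where 11.4% of all tested genes rose and 12.7% fell, so the falls were near that share. Fbln2, a fibulin that binds nidogen and fibronectin, averaged 99.9 ± 25.4 CPM in GF and 33.0 ± 14.0 CPM in CONV-R (log2 fold change 1.59 ± 0.26; edgeR, adjusted p = 0.00129). Ltbp4, which binds latent TGF-beta and elastic fibres, averaged 2421 ± 109 CPM in GF and 1644 ± 258 CPM in CONV-R (0.56 ± 0.11, adjusted p = 0.00316). Fbln5, an elastic fibre protein, rose by 0.89 ± 0.23 (adjusted p = 0.0138). Vtn, the plasma protein vitronectin made mainly by hepatocytes, averaged 15.2 ± 4.49 CPM in GF and 85.6 ± 67.4 CPM in CONV-R (-2.49 ± 0.51, adjusted p = 0.00493). Hepatocyte markers were highest in the same CONV-R group, as given above, and their part in the fall of Vtn was not tested. Without GF 11, 5 of 28 tested genes rose and 4 fell, where 8.19% and 8.71% of all tested genes did.

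Library names carry a code with the number 10 for CONV-R 1 to 4, 9 for CONV-R 5 to 7 and 6 for every GF library, so the code and the group cannot be told apart. With CONV-R 1 to 4 alone, 3 of the 16 member calls were kept (Col18a1, Col17a1 and Loxl3), and with CONV-R 5 to 7 alone 11 were. Calls over all genes differed in the same direction. They came to 978 higher and 1000 lower of 14191 genes with CONV-R 1 to 4, and to 2281 and 2526 of 14122 with CONV-R 5 to 7. Nid1 had a log2 fold change of 0.49 against CONV-R 1 to 4 (adjusted p = 0.0544) and of 0.45 against CONV-R 5 to 7 (adjusted p = 0.00216). Loxl4 had 0.68 (adjusted p = 0.0866) and 0.95 (adjusted p = 9.3e-04), and Col18a1 -1.53 (adjusted p = 0.0395) and -1.87 (adjusted p = 0.00291), in the same order of CONV-R libraries.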

How the data were processed

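Raw counts for 24421 gene symbols in 13 libraries were deposited by the authors as a single table. Per the labels' protocols, stranded poly(A) libraries were made and read on a single Illumina instrument type. The build mm10 and the tools STAR 2.7.5a, featureCounts 2.0.1 (Subread), FastQC 0.11.9 and DESeq2 1.42.1 are named, per the submitters' processing notes, without annotation or strand setting. Groups came from the labels.

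From these deposited counts, edgeR 4.0.16 (R 4.3.3) tested all genes kept by filterByExpr (minimum count 10, minimum total 15), with TMM scaling, robust quasi-likelihood fits of group and Benjamini-Hochberg adjustment at 0.05. The standard error is |log2 fold change| divided by √F. CPM use the TMM-scaled library. Exon lengths and gene starts came from GENCODE M21, in which all 66 members had 1 gene model. The biological coefficient of variation over all genes was 0.264; for members of low count, such as Col5a3 with 16 counts in GF 13, counting error is of similar size.

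Members, roles and lists were chosen with earlier results of these data known. Named are the members called with or without GF 11, the most abundant of each role, and up to 4 called genes with the smallest p in each of 3 pathway lists. The named genes Pcolce2 and Itgav, and other members named for their role, were chosen after their values were seen. There were 12 marker lists, some sharing genes (Krt19, Sox9, Spp1, Des). Alternatives were DESeq2 1.42.0, limma-voom (limma 3.58.1), other scalings and filters, a hepatocyte covariate, subsets of CONV-R and leaving out each library. The values of 1 tested member are not reported here.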

Additional observations from a re-analysis of the deposited data

Results flagged for a closer look

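In 21 of 102 groups of libraries (each of the 51 tested members in GF and in CONV-R), 1 library lay far from the rest on the log2(CPM + 0.5) scale by Dixon's 95% criterion, which chance alone meets in about 1 group in 20.

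GF 11 was the far library in 12 of them, each time the highest of GF. Its values were 246 CPM for Col3a1 (others 2.49 to 7.05), 154 for Col1a1 (0.493 to 1.19), 146 for Col1a2 (1.57 to 3.27), 57.2 for Col6a1 (1.11 to 2.02) and 48.6 for Col6a2 (0.428 to 0.955). It held 27 CPM of Col5a1 (2.40 to 2.60), 15.3 of Lox (0.862 to 1.46), 9.11 of Loxl1 (0.214 to 0.433) and 6.87 of Col16a1 (2.06 to 2.56). It also held 299 CPM of Fn1 (29.7 to 45.8), 128 of Col5a2 (62.1 to 79.6) and 3.5 of Col5a3 (0.684 to 1.30).

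CONV-R 1 was the far library in 6 groups, each time the lowest of CONV-R. Its values were 993 CPM for Hspg2 (others 1686 to 2262), 385 for Nid1 (556 to 665), 154 for Agrn (227 to 275), 1.06 for Col1a2 (2.39 to 3.66), 0.71 for Col5a1 (1.83 to 3.08) and 0.507 for Col6a1 (1.70 to 2.72). This library also had the lowest sum of endothelial markers, and the part of that in these values was not tested.

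Col27a1, a fibrillar collagen gene, was lowest in GF 13 at 51.2 CPM (others 56.3 to 59.1) and highest in CONV-R 7 at 107.3 CPM (others 43.7 to 58.0). Col14a1, a fibril-associated collagen gene, was lowest in GF 8 at 11.7 CPM (others 18.7 to 22.6).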

How the results depend on the processing

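Counts of called members (9 higher and 7 lower in GF) moved as follows. Higher members numbered 5 with no filter, 4 with limma-voom, 1 and 14 against CONV-R 1 to 4 and against CONV-R 5 to 7, 4 without CONV-R 1 and 7 together, 0 with the hepatocyte covariate and 0 at a threshold of 0.01; leaving out each library gave 4 to 10. Lower members numbered 2 against CONV-R 1 to 4, 4 without CONV-R 1 and 7, 2 with the hepatocyte covariate and 1 at 0.01, and 4 to 7 on leaving out each library. Over all genes (1593 higher, 1764 lower), library totals in place of TMM gave 971 and 2773 and moved the median log2 fold change to -0.11; CONV-R 1 to 4 alone gave 978 and 1000, the covariate 257 and 219, and the 0.01 threshold 629 and 579. No filter gave 1424 and 1524, limma-voom 1913 and 1636, CONV-R 5 to 7 alone 2281 and 2526, and leaving out CONV-R 1 and 7 1438 and 1665. Leaving out each library gave 1013 to 1765 higher and 1208 to 1972 lower. The causes were not tested.

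Of 23 members followed, these changed sign. With the hepatocyte covariate, Col18a1 stood at 0.23, Col11a2 at 0.19, Col5a3 at 0.024, Col4a1 at -0.27, Lama4 at -0.19, Hspg2 at -0.23, Loxl2 at -0.0050 and Col14a1 at -0.022. Fn1 stood at -0.10 with library totals, -0.16 with limma-voom and -0.28 against CONV-R 5 to 7, and between -1.10 and 0.19 on leaving out each library. On leaving out each library Col1a1 ranged from -0.67 to 4.45 and Col1a2 from -0.23 to 3.45. Of the 16 calls, DESeq2's size factors and the stricter filter kept 16, DESeq2 kept 14 (it gave no adjusted p for Col1a1 and Col1a2), library totals 13, no filter 12, limma-voom 9 and the covariate 1 (Loxl3). No paired analysis was possible because the groups share no replicate number. Depth limits the 15 untested collagens, whose absence is not shown.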
